A study of Mus musculus with 12 samples.

Results

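The 8 genes described here encode surface proteins through which an antigen-presenting cell stimulates, restrains or holds on to T cells: Cd40, Cd80, Cd86, Cd83, Cd274, Pdcd1lg2, Icosl and Icam1. They were taken by name as 8 of the 24421 gene symbols in a table of read levels from RAW 264.7 cells, a mouse macrophage line of BALB/c origin. Cells were wild type (WT) or a knockout (KO) of Parp14, which encodes an ADP-ribosyltransferase. For the KO line, the number of clones and the part of Parp14 that was removed were not given in the sources used here. Each of 6 groups had 2 libraries: WT left untreated, WT with lipopolysaccharide (LPS), WT with a Jak kinase inhibitor, WT with LPS and the inhibitor together, untreated KO, and KO with LPS, each treatment lasting 2 h. LPS comes from the outer membrane of gram-negative bacteria and is sensed by TLR4, and Jak kinases carry the signal of interferon receptors. For the inhibitor, neither name nor dose was given in the sources used here, and in the libraries analysed here it was given to WT cells alone.

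A T cell that meets antigen on a macrophage or dendritic cell also reads a second set of signals on that cell's surface. CD80 and CD86 bind CD28, which supports activation, and CTLA-4, which restrains it; ICOSL binds ICOS, and CD40 is itself a receptor, engaged by CD40L on the T cell, that signals through TRAF adaptors and NF-kB. PD-L1 (Cd274) and PD-L2 (Pdcd1lg2) bind the inhibitory receptor PD-1, and ICAM-1 binds the integrin LFA-1 and holds the cells together. Microbial signals raise many of these genes through NF-kB, and interferons raise Cd274 through Jak kinases and IRF1.

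Values are in CPM, the reads of a gene scaled to all reads of its library that fell in genes, 35.94 to 45.66 M reads per library. Changes are differences of log2(CPM + 1) from limma across the 10899 genes tested, with their standard error (SE) or 95% confidence interval (CI). A change was called at a Benjamini-Hochberg adjusted p under 0.05 over all of those genes. For a gene near 1 CPM the added 1 shrinks the change, so ratios of mean CPM are also given. Nothing in the labels says that the 2 libraries of a group came from separate cultures, and the p-values therefore measure only how far these samples differ, a spread that may be technical. In bulk RNA, fewer cells of a type and less RNA per cell cannot be told apart.

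Parp14 itself was at 76.4 and 99.7 CPM in untreated WT and 10.0 and 11.97 CPM in untreated KO libraries, and at 315 and 419 against 34.9 and 40.5 CPM with LPS, so the libraries labelled KO were low in it. The macrophage markers matched the label: 9 of 10 listed symbols were measured and all 9 passed the minimum level. The absent symbol, Emr1, is an older name of Adgre1, which was measured. The summed level of the 9 ran from 11393 to 15159 CPM. Of 7 lymphocyte markers 5 had 0 reads in every library and the sum stayed at or under 0.246 CPM, and of 6 stromal, endothelial and epithelial markers 3 had 0 reads and the sum stayed at or under 0.523 CPM.

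Of the 8 genes, 7 reached 1 CPM in all 12 libraries and were tested. Pdcd1lg2 (chromosome 19, 29410919 to 29471161, plus strand, GRCm38) was the exception, with 6 reads in all. These were 1 read in WT with LPS replicate 1, 1 in each of both WT libraries with the inhibitor and 3 in untreated KO replicate 1, against 0 in the other 8 libraries. In these 8 a level of 0 reads allows up to 0.0702 to 0.0835 CPM per library (3 reads, counting error only), so no change of the PD-L2 gene was detectable at this depth and no fold is given. Its neighbour Cd274 (chromosome 19, 29367455 to 29388095, plus strand), 22.8 kb away, was measured in every library with 81 to 760 reads.

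Per kb of exon, the levels in untreated WT cells differed widely between the genes. Icam1 (chromosome 9, 21015985 to 21028817, plus strand) at 23.1 ± 2.47 and Cd83 (chromosome 13, 43784775 to 43803132, plus strand) at 21.3 ± 5.31 CPM per kb (SD, n = 2) were highest, and their libraries overlapped. Icosl (chromosome 10, 78069302 to 78083913, plus strand) followed at 1.69 ± 0.19 CPM per kb. Then came Cd274 at 0.995 ± 0.148 and Cd40 (chromosome 2, 165055627 to 165072948, plus strand) at 0.979 ± 0.0265 CPM per kb, which also overlapped. Lowest were the B7 genes Cd80 (chromosome 16, 38455561 to 38496335, plus strand) at 0.717 ± 0.0506 and Cd86 (chromosome 16, 36603869 to 36666081, minus strand) at 0.537 ± 0.122 CPM per kb, without overlap. With LPS the order of the WT groups was Cd83 at 362 ± 53.4, Icam1 at 160.4 ± 8.89, Cd40 at 36.2 ± 5.67, Icosl at 29.4 ± 1.46, Cd80 at 4.96 ± 0.307, Cd274 at 4.56 ± 0.0559 and Cd86 at 1.06 ± 0.227 CPM per kb, and no neighbours in it overlapped. In KO cells with LPS, Cd86 stood above Cd274, at 2.90 against 2.37 CPM per kb; the libraries overlapped, from 2.26 to 3.55 against 2.30 to 2.43.

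The RefSeq promoter table for GRCm38.p6 held 5 of the 8 genes: Cd80, Cd274, Pdcd1lg2, Icosl and Icam1. Their upstream stretches are printed because 4 of these genes rose with LPS while Pdcd1lg2 stayed near 0 reads. Each runs 5′ to 3′ on the plus strand, the strand of all 5 genes, and is limited to the bases of the 250 upstream of the RefSeq start that lie outside annotated exons, which leaves the whole window for Cd80, Pdcd1lg2 and Icam1, 184 bases for Icosl and 47 for Cd274. The RefSeq start of Cd80 lies inside the GENCODE gene. Capitals mark a match to 1 of 4 motifs.
Icam1, chr9:21015690-21015939: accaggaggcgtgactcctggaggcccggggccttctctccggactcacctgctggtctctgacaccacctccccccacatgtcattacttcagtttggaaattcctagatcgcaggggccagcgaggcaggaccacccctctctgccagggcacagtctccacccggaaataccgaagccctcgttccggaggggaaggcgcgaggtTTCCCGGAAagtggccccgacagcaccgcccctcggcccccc
Cd80, chr16:38458683-38458932: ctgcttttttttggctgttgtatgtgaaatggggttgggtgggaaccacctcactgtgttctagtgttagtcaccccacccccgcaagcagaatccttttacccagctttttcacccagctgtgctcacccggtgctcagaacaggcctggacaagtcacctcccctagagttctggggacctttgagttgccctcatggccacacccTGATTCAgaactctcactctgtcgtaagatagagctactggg
Icosl, chr10:78069118-78069301: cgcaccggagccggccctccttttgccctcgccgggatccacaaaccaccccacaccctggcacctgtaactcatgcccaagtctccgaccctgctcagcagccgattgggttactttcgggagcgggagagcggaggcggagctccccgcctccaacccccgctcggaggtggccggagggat
Cd274, chr19:29367391-29367437: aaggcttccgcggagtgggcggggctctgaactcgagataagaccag
Pdcd1lg2, chr19:29410669-29410918: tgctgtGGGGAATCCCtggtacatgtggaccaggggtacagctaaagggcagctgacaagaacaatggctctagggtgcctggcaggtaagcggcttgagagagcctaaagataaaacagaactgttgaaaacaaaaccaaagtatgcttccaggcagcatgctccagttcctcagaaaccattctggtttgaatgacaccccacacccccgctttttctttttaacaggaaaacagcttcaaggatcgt

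Motifs were searched on both strands of the full 250 bases. They were the NF-kB consensus GGGRNWYYCC and the interferon response element (GAAA, 2 bases of any kind, GAAA). The others were the GAS site (interferon gamma-activated site) TTCNNNGAA and the AP-1 site TGANTCA. In these letters R is A or G, Y is C or T, W is A or T and N is any base. The 4 motifs were found, in this order, in 3.9%, 2.98%, 7.02% and 6.75% of all 32851 windows of the table. Icam1 held a GAS site, TTCCCGGAA, from 42 to 34 bases upstream. Cd80 held an AP-1 site, TGATTCA, from 42 to 36 bases upstream, and Pdcd1lg2 held an NF-kB consensus match, GGGGAATCCC, from 244 to 235 bases upstream. No match overlapped another, and the windows of Cd274 and Icosl held none of the 4. Only exact matches were searched and marked. The Icam1 stretch holds tggaaattcc, which departs from the NF-kB consensus in its first base alone and is therefore unmarked. Such near matches were not searched in any window, so a window without a mark may still hold a site.

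**Figure D1:**
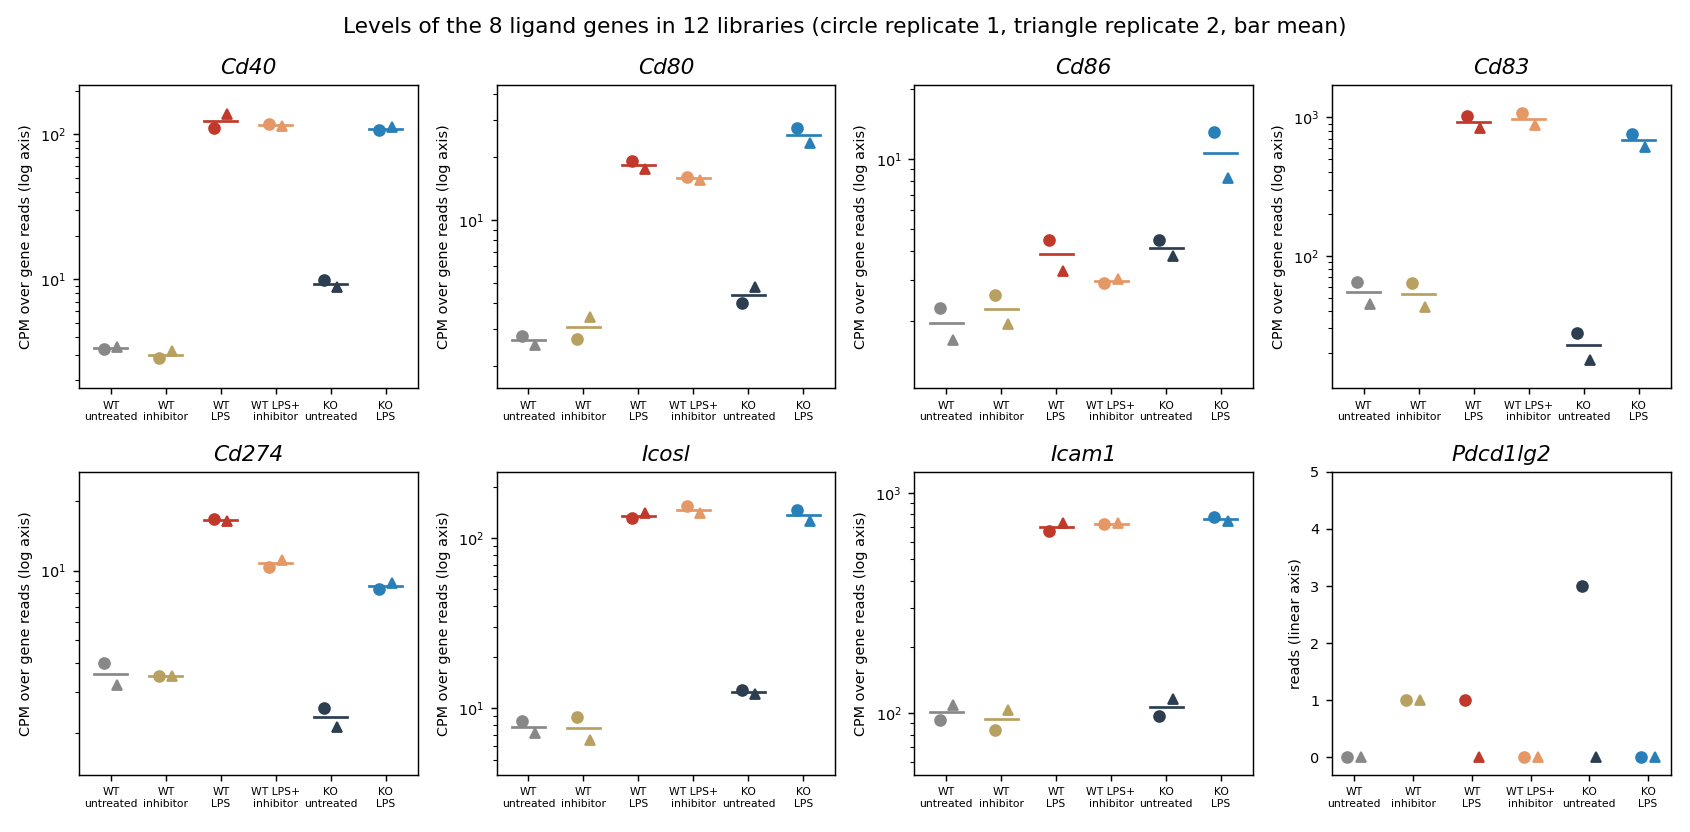
Levels of the 8 genes in the 12 libraries, in CPM over gene reads on a log axis for the 7 tested genes and in reads on a linear axis for Pdcd1lg2; the circle is replicate 1, the triangle replicate 2 and the bar the group mean. All 3 groups with LPS stand above their groups without it for the 7 tested genes, and Pdcd1lg2 has at most 3 reads in a library.

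WT cells with and without LPS were compared first, to see how these genes respond to it. All 7 tested genes rose, where 13.7% of all tested genes were called higher and 53.6% lower, or 67.3% either way. The costimulatory receptor gene Cd40 rose most, 37.0-fold, and the B7 gene Cd86 least, 1.97-fold. The median change of the 7 was 2.78, beside -0.302 over all tested genes. Rescaling by the median of ratios moved these to 3.07 and -0.0361, and all 7 were still called higher.

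The receptor gene Cd40 was at 3.27 and 3.40 CPM untreated and 109.8 and 137 CPM with LPS, a change of 4.83 (SE 0.105, adjusted p = 1.1e-09). Icosl, the ICOS ligand gene, went from 8.42 and 7.17 to 131 and 141 CPM, a 17.5-fold rise (log2 difference 3.96, SE 0.13, adjusted p = 1.18e-08). Both genes were low before LPS and their libraries with LPS stood far above. Cd83, a marker of activated antigen-presenting cells whose protein keeps MHC class II and CD86 on the surface, was at 64.6 and 45.3 CPM before and 1028 and 833 CPM after LPS, 16.9-fold higher (log2 difference 4.07, SE 0.255, adjusted p = 6.88e-07). For Cd83 replicate 1 lay above replicate 2 in all 6 groups of the study.

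The adhesion gene Icam1 rose 6.93-fold, from 93.3 and 109 to 672 and 727 CPM (log2 difference 2.78, SE 0.116, adjusted p = 5.21e-08). Cd80 rose by nearly the same ratio, 6.92-fold, from 2.79 and 2.52 to 19.2 and 17.6 CPM (log2 difference 2.41, SE 0.121, adjusted p = 1.7e-07), from a far lower level. Its partner Cd86, which binds the same T-cell receptors, went only from 2.28 and 1.65 to 4.47 and 3.29 CPM (log2 difference 0.72, SE 0.203, adjusted p = 0.0106). The Cd86 groups did not overlap, but the call was lost without untreated WT replicate 2 (0.56, adjusted p = 0.0782) and without WT with LPS replicate 1 (0.54, adjusted p = 0.0834). The PD-L1 gene Cd274 was at 3.98 and 3.22 CPM untreated and 16.6 and 16.4 CPM with LPS, 4.58-fold higher (log2 difference 1.93, SE 0.102, adjusted p = 2.26e-07).

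KO cells were given LPS to ask the same of the knockout line. There, too, all 7 rose, beside 13.9% of all tested genes called higher and 52.7% lower, or 66.7% either way, and the median of the 7 was 2.82 against -0.29 over all tested genes. Cd83 rose most, 30.1-fold, from 27.7 and 17.8 to 756 and 613 CPM (log2 difference 4.88, SE 0.255, adjusted p = 2.08e-07). Cd40 went from 9.83 and 8.78 to 107 and 112 CPM, 11.8-fold (log2 difference 3.43, SE 0.105, adjusted p = 8.31e-09), and Icosl from 12.8 and 12.2 to 147 and 127 CPM, 11.0-fold (log2 difference 3.35, SE 0.13, adjusted p = 3.23e-08). These 3 genes were again the most induced. Icam1 rose 7.11-fold to 779 and 741 CPM, Cd80 5.79-fold to 27.6 and 23.4 CPM and Cd274 3.67-fold to 8.35 and 8.80 CPM. Cd86 rose 2.57-fold, from 4.46 and 3.82 to 12.99 and 8.26 CPM (log2 difference 1.15, SE 0.203, adjusted p = 0.00067), with its KO libraries with LPS far apart from each other.

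**Figure D2:**
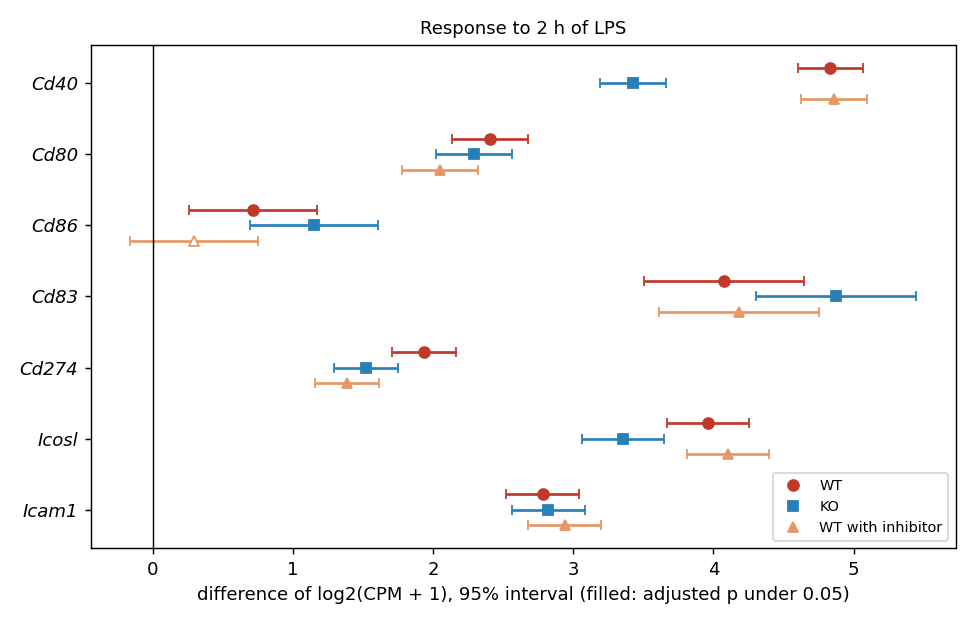
LPS response of the 7 tested genes as differences of log2(CPM + 1), with bars for the 95% CI, in WT cells, KO cells and WT cells with the inhibitor; filled symbols are called at an adjusted p under 0.05. Cd40, Cd83 and Icosl lie above 3 in each setting and Cd86 lies lowest, between 0.29 and 1.15.

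Some dendritic cell markers also rose with LPS. Of 6 such markers 3 were tested and all 3 were called higher in WT cells, where 13.7% of all tested genes were. Itgax rose by 1.93 and Zbtb46 by 0.41. Xcr1 rose by 2.33, from a mean of 0.478 CPM untreated to 6.43 CPM with LPS. It reached the minimum level only through libraries with LPS, so its rise was built into the filter. The summed level of the 6 was 7.07 to 9.07 CPM in untreated WT and 26.3 to 33.2 CPM with LPS, and 4.74 to 6.14 against 23.1 to 28.8 CPM in KO cells. Flt3, an untested marker of the 6, had 1 read over all 12 libraries. Siglech and Ccr7, also untested, reached at most 0.574 and 0.146 CPM in a library. The part of these markers in the result was not tested.

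Other genes of the same axes went both ways with LPS. Over all tested genes 13.7% were called higher and 53.6% lower in WT cells, and 13.9% and 52.7% in KO cells. Among 22 measured genes for other costimulatory, checkpoint and adhesion ligands 12 were tested, and in WT cells 4 rose and 7 fell, or 5 and 2 once rescaled in that way; the list median was -0.30, beside -0.302 over all tested genes. Tnfsf9, the ligand of 4-1BB, rose from 33.4 ± 1.63 to 181 ± 8.65 CPM (log2 difference 2.41, SE 0.082, adjusted p = 1.46e-08), and Pvr, a ligand of TIGIT and CD226, from 19.4 ± 1.62 to 82.6 ± 5.93 CPM. By contrast 4632428N05Rik, the gene of the checkpoint protein VISTA, fell from 141 ± 28.4 to 24.3 ± 2.01 CPM (log2 difference -2.48, SE 0.214, adjusted p = 5.29e-06), and Cd24a fell by 0.97 on the log2 scale. Cd200 and Slamf1 had 0 reads. In KO cells 3 rose and 7 fell, or 4 and 5 after rescaling.

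The receptors and partners of the 8 proteins were partly present in the macrophages themselves. Of 10 genes 8 were tested, and with LPS 3 rose and 3 fell in WT cells (4 and 1 after rescaling). In KO cells 4 rose and 2 fell (4 and 0). The shares of all tested genes were 13.7% higher and 53.6% lower in WT cells, and 13.9% and 52.7% in KO cells. The PD-1 gene Pdcd1 rose from 3.64 ± 2.03 to 23.4 ± 5.97 CPM in WT cells (log2 difference 2.45, SE 0.485, adjusted p = 0.00136), while Cd28 fell from 16.9 ± 7.31 to 3.90 ± 1.42 CPM (log2 difference -1.84, SE 0.495, adjusted p = 0.00809). Itgal, the alpha chain of LFA-1, rose by 0.75. The T-cell receptor zeta gene Cd247, counted here although it is no direct partner of the 8 proteins, rose by 1.46. Its mean went from 0.0254 to 1.82 CPM in WT cells. It reached the minimum level only through libraries with LPS, so its rise was built into the filter. Cd40lg had 0 reads and Ctla4 13 reads in all.

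Of 10 genes listed for signalling downstream of CD40, 6 rose and 1 fell with LPS in WT cells, or 9 and 1 after rescaling. Over all tested genes 13.7% were called higher and 53.6% lower. KO cells had the same 6 and 1 in number (8 and 1), beside 13.9% and 52.7% of all tested genes. Whether CD40 itself took part was not tested. In WT cells the adaptor Traf1 went from 14.0 ± 3.58 to 601 ± 10.1 CPM (log2 difference 5.35, SE 0.226, adjusted p = 5.64e-08). The NF-kB subunit genes Nfkb2 and Relb and the ubiquitin ligase gene Birc3 rose by 2.45, 1.89 and 1.90. Map3k14, the NF-kB-inducing kinase, was the 1 that fell, by 1.39 on the log2 scale. Among 10 genes for factors that act on these promoters or on PD-L1 protein 5 rose and 3 fell in WT cells (7 and 2 after rescaling) and 4 rose and 3 fell in KO cells (7 and 3). Fosl1 is counted among the genes that rose in both lines. Its mean was 0.490 CPM in untreated WT and 0.731 CPM in untreated KO, against 3.52 and 8.85 CPM with LPS. Fosl1 reached the minimum level only through libraries with LPS, so its rise was built into the filter. In WT cells the NF-kB gene Rel rose by 3.19, Nfkb1 went from 234 ± 0.467 to 1006 ± 77.4 CPM, Irf1 rose by 1.72, and Jun fell by 1.81 on the log2 scale.

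The 2 lines were next set side by side before any treatment. Loss of Parp14 and other differences between the lines cannot be told apart in this design. Of the 7 tested genes 4 were higher in KO cells (Cd40, Cd80, Cd86 and Icosl) and 2 were lower (Cd83 and Cd274), where 4.31% of all tested genes were called higher and 5.37% lower, or 9.68% either way. The largest differences were in Cd40, 2.79-fold higher, and Cd83, at 0.414 of the WT level. Icam1 alone was not called. The number of called genes was 1 to 4 when any 1 of the 4 libraries was left out; Cd40 was called each time.

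Cd40 stood at 9.83 and 8.78 CPM in KO against 3.27 and 3.40 CPM in WT libraries (log2 difference 1.25, SE 0.105, adjusted p = 7.76e-05). The B7 gene Cd86 was at 4.46 and 3.82 against 2.28 and 1.65 CPM (log2 difference 0.80, SE 0.203, adjusted p = 0.0367), but was not called when any 1 library was left out (adjusted p = 0.0767 to 0.232), without the filter on low levels (adjusted p = 0.0735) or with the deposited scaling (adjusted p = 0.0557). Cd80 was at 4.01 and 4.78 against 2.79 and 2.52 CPM (log2 difference 0.56, SE 0.121, adjusted p = 0.0179). None of the library pairs of these 3 genes overlapped. Icosl was at 12.8 and 12.2 against 8.42 and 7.17 CPM (log2 difference 0.62, SE 0.13, adjusted p = 0.0159). The calls of Cd80 and Icosl were each lost without any of 3 libraries, at adjusted p = 0.0687 (untreated WT replicate 1), 0.119 (WT replicate 2) and 0.132 (KO replicate 2) for Cd80, and 0.123 (WT replicate 2), 0.0992 (KO replicate 1) and 0.0673 (KO replicate 2) for Icosl.

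The lower genes were the activation marker Cd83 and the PD-L1 gene. Cd83 was at 27.7 and 17.8 CPM in KO and 64.6 and 45.3 CPM in WT libraries (log2 difference -1.25, SE 0.255, adjusted p = 0.0137), with the higher KO library well under the lower WT library. Cd274 was at 2.56 and 2.12 against 3.98 and 3.22 CPM (log2 difference -0.46, SE 0.102, adjusted p = 0.0194), a gap between the nearest libraries that was about the size of the spread within each group. Both calls were lost without untreated WT replicate 1 (adjusted p = 0.12 for Cd83 and 0.163 for Cd274) or KO replicate 2 (0.102 and 0.144). That of Cd274 was also lost in a fit of these 2 groups alone (adjusted p = 0.114). Icam1 overlapped between the lines, at 97.5 and 116 against 93.3 and 109 CPM (difference 0.08, CI -0.18 to 0.34, adjusted p = 0.827).

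KO and WT cells were then compared with LPS. Cd86 and Cd80 were higher in KO cells and Cd274 was lower, 3 of 7 where 6.19% of all tested genes were called higher and 7.66% lower, or 13.9% either way. Cd86 was at 12.99 and 8.26 CPM in KO and 4.47 and 3.29 CPM in WT libraries, 2.74-fold (log2 difference 1.23, SE 0.203, adjusted p = 0.00323). Cd274 was at 8.35 and 8.80 against 16.6 and 16.4 CPM, 52.0% of the WT level (log2 difference -0.87, SE 0.102, adjusted p = 0.000462). Both calls held in every alternative run, each library left out included. The Cd274 libraries of a group lay close together and far from those of the other line, while those of Cd86 lay further apart.

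Cd80 was at 27.6 and 23.4 against 19.2 and 17.6 CPM (log2 difference 0.45, SE 0.121, adjusted p = 0.0367). That call was lost at a pseudocount of 0.25 (adjusted p = 0.0544), without the filter (0.0794), in a fit of the 2 groups alone (0.0677) and without WT with LPS replicate 1 (0.0887), WT replicate 2 (0.189) or KO with LPS replicate 1 (0.232). Cd83 was at 756 and 613 against 1028 and 833 CPM, a difference of -0.44 (CI -1.01 to 0.13, adjusted p = 0.34). The groups did not overlap, and with the replicate number as a block the Cd83 difference was called (adjusted p = 0.000259), where 31.5% of all tested genes were called. Cd40 (difference -0.16, CI -0.40 to 0.07), Icosl (0.01, CI -0.29 to 0.30) and Icam1 (0.12, CI -0.14 to 0.38) were not called, and those of Cd40 and Icosl overlapped between the lines.

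**Figure D3:**
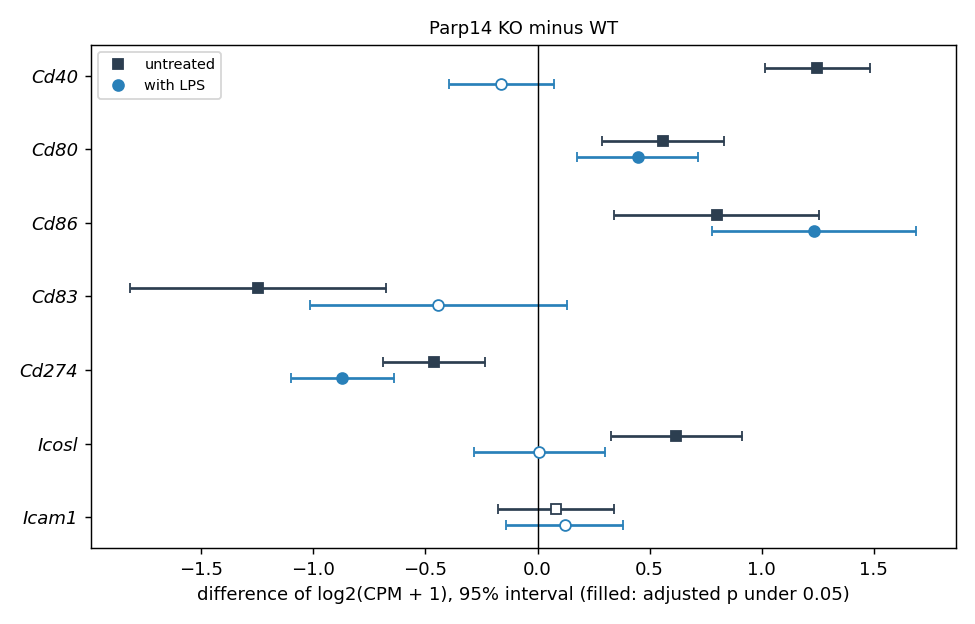
Difference of KO from WT cells in the 7 tested genes, as log2(CPM + 1) with 95% CI, untreated and with LPS; filled symbols are called. Cd40 and Icosl lie right of 0 untreated and near 0 with LPS, Cd86 lies right of 0 and Cd274 left of 0 in both.

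The size of the LPS response itself was then compared between the lines. Cd40 was the 1 gene of 7 whose response differed, beside 0.413% of all tested genes (0.284% with a smaller response in KO cells). Its response was smaller in KO cells, with a difference of -1.41 (SE 0.148, adjusted p = 0.00383), at -1.38 in replicate 1 and -1.44 in replicate 2. The lines differed at the start and not detectably at the end: untreated KO cells had 2.79-fold more Cd40 reads, and with LPS the ratio was 0.888. This call held in every alternative run.

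Of the others, the response in KO cells minus that in WT cells was -0.61 for Icosl (CI -1.02 to -0.20, adjusted p = 0.378) and -0.41 for Cd274 (CI -0.73 to -0.09, adjusted p = 0.557), neither called. For Cd83 it was 0.80 (SE 0.36, adjusted p = 0.815), also not called. With the replicate block 3 of 7 were called, where 3.79% of all tested genes were: Cd40, Cd83 (adjusted p = 0.000331) and Icosl (adjusted p = 0.00877). For Cd80 (-0.11, CI -0.50 to 0.27), Cd86 (0.43, CI -0.21 to 1.08) and Icam1 (0.04, CI -0.33 to 0.41) no difference of response was called with or without it.

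Macrophage markers differed between the lines beside these genes. Of the 9 tested markers 1 was higher and 2 were lower in untreated KO cells, and 1 was higher and 3 lower with LPS. Over all tested genes 9.68% and 13.9% were called. With the replicate block 1 was higher and 3 lower untreated, and 1 higher and 5 lower with LPS. Cd14 was the higher marker in both, by 0.306 untreated (limma adjusted p = 0.0376) and 0.299 with LPS (adjusted p = 0.0326). Adgre1, the gene of the macrophage surface protein F4/80, was lower by 0.95 on the log2 scale untreated (adjusted p = 0.00292) and by 1.30 with LPS (adjusted p = 0.000357). Cd68 was also lower, at -0.292 untreated (limma adjusted p = 0.0499) and -0.285 with LPS (limma adjusted p = 0.0425). Fcgr1 was lower with LPS, at -0.725 (limma adjusted p = 0.00928). Without the block Csf1r, Itgam, Lyz2, Ptprc and Spi1 were not called in either condition. The summed level of the 9 was 12327 to 14721 CPM in untreated KO and 13268 to 15159 CPM in untreated WT. With LPS it was 11393 to 12553 against 13488 to 13672 CPM. Most of this sum was Lyz2, at means of 8873 against 9631 CPM untreated and 6654 against 8328 CPM with LPS. Its limma adjusted p was 0.791 untreated and 0.205 with LPS, and 0.00617 with LPS under the replicate block. The part of these markers in the results was not tested. Of the 3 tested dendritic cell markers 0 were called between the lines by limma, edgeR or DESeq2 in either condition, and 1 was lower at an unadjusted p under 0.05 in each. With the replicate block 1 was lower in each, Itgax untreated (-0.77, adjusted p = 0.000285) and Xcr1 with LPS (-0.32, adjusted p = 0.0403), where 24.6% and 31.5% of all tested genes were called.

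Of the other ligand genes, 2 were higher and 2 lower in untreated KO cells, and 2 higher and 3 lower with LPS. Over all tested genes 9.68% and 13.9% were called either way. Cd48, a ligand of CD244, was higher in both, by 1.28 and 1.19. Lgals9, a ligand of TIM-3, was lower in both, at -0.66 and -0.94, as was the B7 family gene Cd276, at -0.48 and -0.87. Among the receptors and partners 2 were lower and 0 higher by limma in each condition (0 also higher at an unadjusted p under 0.05, by edgeR and by DESeq2). Itgal was lower in both, at -0.83 and -0.79. Untreated the other was Cd28, at 3.49 ± 1.24 CPM in KO against 16.9 ± 7.31 CPM in WT (log2 difference -1.96, SE 0.495, limma adjusted p = 0.0352). With LPS Cd28 was not called (-1.33, limma adjusted p = 0.119), and the other was Cd247, at means of 0.731 against 1.82 CPM (log2 difference -0.71, limma adjusted p = 0.000975). Cd247 reached the minimum level only through WT libraries with LPS, so the filter favoured this difference. The CD40 signalling list had 1 higher and 1 lower untreated, and with LPS 1 called gene, Traf5 at -0.57. Of the 10 factors 0 were called untreated by limma or edgeR and 1 by DESeq2, with 2 at an unadjusted p under 0.05. With LPS 2 were higher (Jun by 1.15, Fosl1 by 1.09) and 1 lower (Irf1 at -1.74).

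With the replicate block more of these related genes were called between the lines, as were more of all tested genes (24.6% untreated and 31.5% with LPS). Among the other ligands 4 were then higher and 3 lower untreated, and 3 higher and 6 lower with LPS. The receptors and partners had 1 higher and 3 lower untreated, and 1 higher and 5 lower with LPS. The higher receptor in both was the PD-1 gene Pdcd1, by 1.07 untreated (adjusted p = 6.04e-05, against adjusted p = 0.259 without the block) and by 0.86 with LPS (adjusted p = 0.000302, against adjusted p = 0.323). The CD40 signalling list had 2 higher and 2 lower untreated, and 1 higher and 2 lower with LPS. Of the factors Jun was higher untreated (0.70, adjusted p = 0.000103) and Rel lower (-0.35, adjusted p = 0.000636). The genes named with the block in these lists were chosen after their values were seen.

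WT cells with LPS were then compared with and without the Jak inhibitor. Among the 7 genes the PD-L1 gene alone was lower with LPS and the inhibitor than with LPS, 1 of 7 where 1.04% of all tested genes were called lower and 0.0734% higher, or 1.11% either way. Cd274 was at 10.4 and 11.1 CPM with both and 16.6 and 16.4 CPM with LPS, 65.2% of the level with LPS (log2 difference -0.57, SE 0.102, adjusted p = 0.0262). It was lower in both replicates, at -0.63 and -0.52, and the groups did not overlap. The call was lost at a pseudocount of 0.25 (-0.61, adjusted p = 0.0556), without the filter (adjusted p = 0.0911), in a fit of the 2 groups alone (adjusted p = 0.0714) and when any 1 of the 4 libraries was left out (-0.53 to -0.62, adjusted p = 0.0985 to 0.26).

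The intervals around the inhibitor effect on Cd40, Icosl and Icam1 held 0. Cd40 was at 117 and 114 CPM with both agents (difference -0.09, CI -0.32 to 0.15), Icosl at 154 and 140.1 CPM (0.11, CI -0.18 to 0.40) and Icam1 at 719.9 and 727 CPM (0.05, CI -0.21 to 0.31). Their libraries with both agents overlapped those with LPS. Cd83 was at 1071 and 874 CPM, with a wider interval (0.06, CI -0.51 to 0.64). Its difference was 0.060 in replicate 1 and 0.068 in replicate 2. With the replicate block its SE was 0.0716, against 0.255 without, and it was not called either (limma adjusted p = 0.669). For the B7 genes the libraries with both agents lay under those with LPS without a call, Cd80 at 16.1 and 15.6 CPM (-0.20, CI -0.47 to 0.07) and Cd86 at 2.93 and 3.02 CPM (-0.29, CI -0.74 to 0.17).

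Without LPS the inhibitor changed none of the 7 genes past the threshold, by limma, edgeR, DESeq2 or an unadjusted p under 0.05. Over all tested genes 0% were called, with 111 at an unadjusted p under 0.05, 0 by edgeR and 2 by DESeq2. The differences ran from -0.11 for Cd40 (CI -0.35 to 0.12) to 0.15 for Cd80 (CI -0.12 to 0.42), and that of Cd274, at 3.50 and 3.50 CPM, was -0.03 (CI -0.25 to 0.20).

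Under the inhibitor LPS still raised 6 of the 7 genes, where 13.5% of all tested genes were called higher and 50.8% lower, or 64.2% either way; the median of the 7 was 2.94. Cd40 rose 38.4-fold from 2.83 and 3.19 CPM (log2 difference 4.86, SE 0.105, adjusted p = 1.3e-09), Icosl 19.1-fold (4.10), Cd83 18.2-fold (4.18) and Icam1 7.70-fold (2.94). Cd80 rose 5.14-fold (2.05) and Cd274 3.07-fold (1.38). Cd86 was not called, at 2.58 and 1.94 CPM before and 2.93 and 3.02 CPM after (log2 difference 0.29, SE 0.203, adjusted p = 0.231); it was called with the replicate block (adjusted p = 0.0371), where 78.1% of all tested genes were, and by DESeq2 (0.71, adjusted p = 0.0278). The test of whether the response differed with and without the inhibitor called 0 of 7 genes by limma, edgeR and DESeq2, with 1, Cd274, at an unadjusted p under 0.05, beside 0.587% of all tested genes called (0.0184% higher and 0.569% lower). For Cd274 that difference was -0.55 (CI -0.87 to -0.22, adjusted p = 0.266), and it was called with the replicate block (adjusted p = 0.0421), where 2.92% of all tested genes were.

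**Figure D4:**
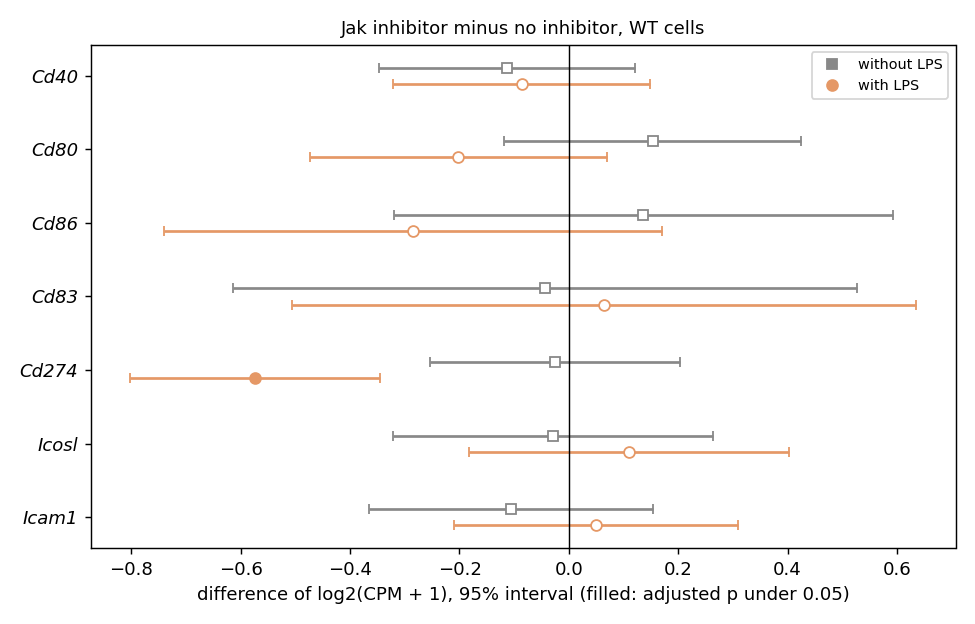
Effect of the Jak inhibitor on the 7 tested genes in WT cells, as differences of log2(CPM + 1) with 95% CI, with and without LPS; filled symbols are called. Cd274 with LPS, at -0.57, is the filled symbol, and every interval without LPS includes 0.

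Cd274 can be set beside the related genes that were lower with LPS and the inhibitor than with LPS. Of the 10 factors this was Irf1 (log2 difference -1.72, SE 0.131, adjusted p = 0.000154), a transcription factor through which interferons act on Cd274, and of the 12 tested other ligands Lgals9 (log2 difference -0.73, SE 0.122, adjusted p = 0.0188). Of the receptors and of the CD40 signalling genes 0 were called by limma, edgeR or DESeq2, with 0 at an unadjusted p under 0.05. KO cells with LPS and inhibited WT cells with LPS are both compared with the same WT libraries with LPS, so the percentages below share them. Irf1 stood at 29.7% of its level in WT with LPS in untreated WT, at 29.7% with LPS and the inhibitor and at 29.2% in KO with LPS, so that its level with LPS was close to that of untreated WT in both. Lgals9 was at 69.5%, 59.2% and 51.0%. Cd274 was at 21.8%, 65.2% and 52.0%, and differed from Irf1 in standing above the level of untreated WT in both. The response of Irf1 to LPS was smaller in KO cells, with a difference of -1.59 (SE 0.186, adjusted p = 0.00726), and under the inhibitor, with a difference of -1.69 (SE 0.186, adjusted p = 0.00295).

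**Figure D5:**
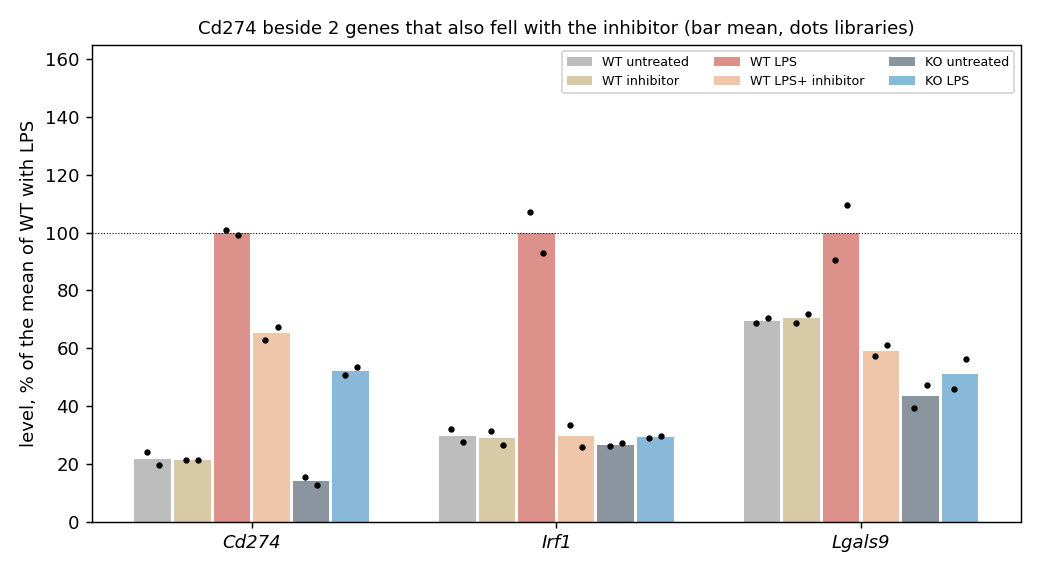
Level of Cd274, Irf1 and Lgals9 in each group as a percentage of the mean of WT with LPS; bars are means and dots the 2 libraries. With LPS and the inhibitor Cd274 is at 65.2% and Irf1 at 29.7%, and in KO with LPS they are at 52.0% and 29.2%.

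Across the 12 libraries the 7 profiles were most alike by Pearson r of log2 levels for Cd40 and Icosl (0.993) and for Icosl and Icam1 (0.990), and least for Cd86 and Cd274 (0.319). By the root mean square difference of centred log2 profiles, which also reads the size of the changes, the most alike were Cd80 and Icam1 (0.380) and Cd40 and Icosl (0.393), and the least alike Cd86 and Cd83 (2.04), with Cd86 and Cd274 at 0.903. The libraries share the LPS split, which any induced gene follows, so these values only describe. By that difference among 9219 genes, the nearest to Cd80 was C5ar1 (0.100), to Icosl Arhgef3 (0.106) and to Icam1 Ikbke (0.109), the kinase gene of IKK epsilon. Less close were those to Cd274, Filip1l (0.191), to Cd86, Cth (0.241), to Cd40, Marcksl1 (0.280) and to Cd83, Tnfaip2 (0.321). The death receptor gene Fas was among the 3 nearest of both Cd40 (0.342) and Icosl (0.234). Cd274 was followed by St3gal1 (0.192) and Rassf4 (0.195), and Cd83 by Socs3 (0.337) and Zc3h12a (0.400).

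Exons of Cd274 and of Icam1 overlap an antisense gene over 511 bases each in the annotation, AC119228.1 and Gm47079. Neither was in the table, and no strand setting of the counting was given in the sources used here, so reads from both strands of these stretches cannot be told apart.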

How the data were processed

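RNA was sequenced from RAW 264.7 cells in 12 libraries, 2 per group, with the Maxwell and TruSeq kits per the labels' protocols. The authors deposited CPM per gene symbol; per the submitters' processing notes these came from TopHat2 2.1.0, HTSeq and edgeR on mm10 (GRCm38). No annotation or strand setting was given in the sources used here. The deposited CPM were scaled over all counted alignments (57.07 to 74.24 M per library), of which 58.95 to 64.06% fell in genes. The rest were 5 HTSeq summary lines. In each library 100% of the values were whole reads within 0.02 reads, which recovered the counts. Of the per-sample columns 4 matched no label and were not used here.

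CPM were rescaled to gene reads. The minimum level was 1 CPM in 2 or more libraries, which 10899 genes reached. The test was limma with trend (limma 3.58.1, R 4.3.3) on log2(CPM + 1), fitting 6 group means (residual degrees of freedom 6, prior 3.54), with Benjamini-Hochberg adjustment over those genes. The limma fit without a replicate block was tested on simulated data for the LPS response in WT cells only. The simulated libraries held no pairing of replicates, and the alternatives that follow were not simulated. Alternatives were a filter of 5 CPM or none, a pseudocount of 0.25, the deposited scaling, the median of ratios, a replicate block, only the groups compared, each library left out, and edgeR 4.0.16 (quasi-likelihood) and DESeq2 1.42.0 on the recovered counts. Differences of replicate 1 minus 2 correlated across genes for each of the 15 pairs of groups (r from 0.468 to 0.737, with a median of 0.622). The replicate numbers of the labels thus appear to pair the libraries, although no label mentions a shared day or batch. The main fit leaves this pairing out, and the replicate block takes it in. A difference not called in the main fit can be called with the block, such as Cd83 between the lines with LPS (limma adjusted p = 0.34 and 0.000259). Values are of the fit without the block unless the block is named. Positions and exon lengths are of GENCODE M21.

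The 8 genes are all named. From each related list up to 4 called genes with the largest change per comparison could be named, and the 3 nearest profiles per gene. Of the related lists 1 gene is not reported here. Members, lists and tests were chosen with earlier results of these data known.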

Additional observations from a re-analysis of the deposited data

Results flagged for a closer look

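The LPS response of Cd40 differed between KO and WT cells, with a difference of -1.41 (SE 0.148, limma adjusted p = 0.00383) in log2(CPM + 1) and the same sign in both replicates (-1.38 and -1.44). It stood out because the same contrast, LPS against untreated, gave different sizes in the 2 lines. The levels behind it were 3.27 and 3.40 CPM untreated and 109.8 and 137 CPM with LPS in WT libraries, and 9.83 and 8.78 CPM and 107 and 112 CPM in KO libraries. Among 10899 tested genes 0.413% were called in this comparison. No library of the groups of 2 could be tested for standing apart.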

How the results depend on the processing

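With 2 libraries per group, the number of called genes changed when single libraries were left out in 4 comparisons. For untreated KO against WT cells it was 6 of 7, and 1 to 4 when 1 library was left out. For the LPS response in WT cells it was 7, and 6 without untreated WT replicate 2 or WT with LPS replicate 1. For KO against WT with LPS it was 3, and 2 without WT with LPS replicate 1 or 2 or KO with LPS replicate 1. For the inhibitor with LPS it was 1, and 0 at a pseudocount of 0.25, without a filter, with only the groups compared and with any 1 library left out. With the replicate block the count of the 7 genes called rose from 1 to 3 for the difference of LPS response between KO and WT cells and from 0 to 1 for that with and without the inhibitor, and no other count of the 7 moved by over 1.5 times; besides the calls of Cd83, Icosl, Cd274 and Cd86 given with it above, it changed no call of the 7. Its calls of the related genes between the lines are given above. Over single genes and comparisons, 806 alternative values kept direction and side of the threshold, 32 lost a call, 6 gained one and 31 changed sign. The sign changes were all of differences that were not called and were near 0. With the deposited scaling Icam1 in untreated KO against WT was -0.00631 and Icosl in KO against WT with LPS -0.0523; with the median of ratios the Cd40 difference of response with and without the inhibitor was -0.00118. With 1 library left out, untreated KO against WT ranged from -0.044 to 0.21 for Icam1, and KO against WT with LPS from -0.099 to 0.11 for Icosl. The difference of LPS response between KO and WT ranged from -0.087 to 0.17 for Icam1 and from -0.23 to 0.0022 for Cd80. The inhibitor with LPS ranged from -0.0067 to 0.11 for Icam1, from -0.25 to 0.073 for Cd40 and from -0.087 to 0.22 for Cd83. Without LPS it ranged from -0.32 to 0.23 for Cd83, from -0.14 to 0.093 for Cd274, from -0.22 to 0.17 for Icosl, from -0.018 to 0.29 for Cd86 and from -0.25 to 0.041 for Icam1. The difference of response with and without the inhibitor ranged from -0.17 to 0.39 for Cd83, from -0.13 to 0.19 for Cd40 and from -0.055 to 0.33 for Icosl. A group with 1 library left is assumed to vary like the others. Depth limited Pdcd1lg2, with 6 reads in all. The cause of these shifts was not tested.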

Other observations

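Cd86 lies 732 kb from Parp14 on chromosome 16, and Cd80 2584 kb from it. Of 13 tested genes within 1 Mb of Parp14, a window chosen after values had been seen, 3 were called between untreated KO and WT cells (23.1%) and 4 with LPS (30.8%), beside 9.68% and 13.9% of all tested genes by limma. With LPS these were Dtx3l at -1.10, Parp9 at -0.80, Pdia5 at 0.37 and Cd86 at 1.23, and untreated Parp9 at -0.30, Pdia5 at 0.37 and Cd86 at 0.80. The other 9 genes of the window, among them Hspbap1 at 0.45 untreated, were not called in either condition.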
